A study of Mus musculus with 27 samples.

Results

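The kinesins are the motor proteins that walk along microtubules. Genes of this superfamily were taken from the gene table by symbol: every gene named Kif with a number and up to 2 trailing characters, and Kifc1, Kifc2, Kifc3 and Kifc5b. The choice used no measured value, but it was made with earlier results of these data known. It returned 43 of the 55416 genes in the table, and each was put into a class by its known role: 13 mitotic motors, 16 motors of neuronal and other intracellular transport, 6 motors of the cilium and of hedgehog signalling, and 8 others.

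A kinesin couples the breakdown of ATP in its motor domain to movement along a microtubule, usually toward the plus end, and a tail domain selects the cargo. Mitotic kinesins build and position the spindle, move and align chromosomes and act in the midbody when daughter cells part; they are made by dividing cells, which in the fetal brain are mostly the progenitors that line the ventricles. Transport kinesins carry vesicles, mitochondria, receptors and synaptic components along axons and dendrites, and several of them are made chiefly by neurons. Kinesins of the C family walk the other way, toward the minus end. Other members work inside the primary cilium or shorten microtubules in place of walking along them.

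Messenger RNA of whole fetal brain was sequenced in 27 libraries from 3 strains of mice on 3 days of gestation, 3 libraries for each of the 9 groups, and each fetus was female. AKR/J is an inbred strain, C57BL/6J is the inbred reference strain of the study, and the Cav1-null mice (B6.Cg-Cav1tm1Mls/J) carry a targeted allele of Cav1, the gene of the caveolar coat protein caveolin-1, in a C57BL/6 background. No group received a treatment; brains were taken on d12, d15 and d17, and the study asked how brain development differs between C57BL/6J, a long-lived strain, and the 2 short-lived ones. The labels do not say whether the 3 libraries of a group came from separate litters, so that p-values measure only the spread between these libraries. Each library held 26363697 to 39759702 reads on genes, of which 47675 to 240843 fell on kinesins. Levels are counts per library of a standard size (CPM) after TMM scaling, which makes most genes level between libraries. Days within a strain and strains on a day were compared with edgeR's quasi-likelihood test on the 6 libraries concerned, and a gene was called differentially expressed (DE) at a Benjamini-Hochberg adjusted p under 0.05 over all genes tested. In whole tissue, fewer cells of a type and less RNA per cell cannot be told apart.

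Cav1, checked first, ran at 10.4 to 39.9 CPM in C57BL/6J and at 9.25 to 34.2 CPM in AKR/J, and each of the 9 Cav1-null libraries held at most 0.509 CPM. Some libraries stood apart from the rest. Summed levels of 10 erythroid markers were 101760, 33232 and 197974 CPM in replicates 1 to 3 of AKR/J d12 and did not exceed 18626 CPM in any other library, and these 3 libraries also held 34.3 to 760.2 CPM of 9 placental and decidual markers, as did C57BL/6J d12 replicate 3 with 70.5 CPM; the other libraries held at most 6.91 CPM. Yolk sac endoderm markers (8 genes) summed to 1589, 203 and 28.5 CPM in replicates 1 to 3 of AKR/J d12 and to at most 15.99 CPM elsewhere, and 8 skeletal muscle markers to 89.6 CPM in AKR/J d15 replicate 2, 61.2 CPM in C57BL/6J d15 replicate 1 and at most 28.35 CPM elsewhere. All 8 neuron markers were detected in each group, with sums of 1795 to 2378 CPM in AKR/J on d12 and 3456 to 7609 CPM elsewhere. Libraries also differed in how genes of high and low GC content were recovered: the difference between the median of genes above 54% GC and of genes below 42% GC, each against the median library of the day, was 0.56 to 0.66 (log2) in the 3 C57BL/6J d15 libraries, 0.20 to 0.82 in C57BL/6J on d12, 0.89, -0.04 and 0.36 in the 3 C57BL/6J libraries of d17, -0.56, -0.06 and -0.54 in those of AKR/J on d12, and -0.09, -0.20 and -0.49 in those of Cav1-null mice on d15. The mitotic kinesins have a median GC content of 46.5% and the transport kinesins of 52.3%, against 49.0% over 15020 genes, and median transcripts of 4371 and 7082 bases. Counts that these libraries touch most are given also with a library left out or with such trends removed.

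Some members were beyond the reach of the data. Kif2b had 2 reads in 1 library, and Kif12 and Kif28 had 70 and 106 reads in all 27 libraries; none of these was tested in any comparison. Kif19b, with 269 reads, entered some comparisons only, so that 39 or 40 members were tested each time. Kifc1 and Kifc5b are near-identical copies of a minus-end motor, as are Kif19a and Kif19b in part, and the handling of reads that match both is not given in the sources used here, so that their separate counts are uncertain.

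Alternative coding stretches of 3 transport kinesins changed their use between d12 and d17, and they are shown here because the reads that span them carry the splicing result below. All lie on the minus strand of GRCm39, and the number of bases of each divides by 3 without remainder. The first is a coding exon of 21 bases of Kif21a (chr15:90849178-90849198), present in 27 of the 34 coding transcripts that span it. The second is a coding exon of 24 bases of Kif1a (chr1:92954554-92954577), present in 5 of 13. The third is an extension of 78 bases at the 5′ end of a Kif1b exon (chr4:149342461-149342538), present in 36 of 60. In each line the alternative stretch stands in capitals, with 15 bases on either side in lower case; these flanks are intron, except for the bases after the Kif1b extension, which are the part of the exon that all these transcripts share.
Kif21a: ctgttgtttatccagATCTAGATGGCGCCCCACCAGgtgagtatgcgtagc
Kif1a: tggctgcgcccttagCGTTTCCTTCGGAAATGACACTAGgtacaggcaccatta
Kif1b: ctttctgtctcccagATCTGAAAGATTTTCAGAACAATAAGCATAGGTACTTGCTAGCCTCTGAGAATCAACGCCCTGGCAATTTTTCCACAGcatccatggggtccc

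Promoters were searched for short motifs, since the mitotic members moved together between days. Stretches of 120 bases are shown for Kif1a and for 4 mitotic kinesins, which were chosen because they hold the letters TTTGAA there. They come from RefSeq promoters (GRCm38.p6), which were matched for 33 of the 43 members. Capitals mark, on either strand, the letters TTTGAA, which are the core of the cell-cycle homology region that keeps cell-cycle genes off in resting cells, and CCAAT, the box bound by NF-Y. In the 250 bases before the start site, TTTGAA was found in 5 of 12 mitotic kinesins, 0 of 11 transport kinesins and 16.3% of 27025 promoters. CCAAT was found in 8 of 12, 3 of 11 and 34.5%, and both in 3 of 12 (Kif11, Kif14 and Kif22), 0 of 11 and 5.73%. Kif1a holds neither in this stretch. The matches are a description of letters, not of binding.
Kif11, chr19:37376262-37376381, plus strand: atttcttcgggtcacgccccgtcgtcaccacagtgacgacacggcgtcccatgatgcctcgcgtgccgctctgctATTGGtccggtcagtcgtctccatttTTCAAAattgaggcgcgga
Kif15, chr9:122950961-122951080, plus strand: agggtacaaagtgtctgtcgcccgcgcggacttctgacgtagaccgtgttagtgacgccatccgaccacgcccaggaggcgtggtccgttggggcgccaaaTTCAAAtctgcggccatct
Kif22, chr7:127042421-127042540, minus strand: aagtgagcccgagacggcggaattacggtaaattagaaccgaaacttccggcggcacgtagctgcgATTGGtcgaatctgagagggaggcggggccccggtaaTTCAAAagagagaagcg
Kif2c, chr4:117178773-117178892, minus strand: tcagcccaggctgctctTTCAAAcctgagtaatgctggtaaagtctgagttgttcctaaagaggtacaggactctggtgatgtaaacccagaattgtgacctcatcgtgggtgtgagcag
Kif1a, chr1:93101875-93101994, minus strand: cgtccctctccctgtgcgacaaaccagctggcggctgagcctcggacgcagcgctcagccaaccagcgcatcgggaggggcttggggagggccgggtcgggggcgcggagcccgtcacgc

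Mitotic kinesins fell as the brain developed. The summed level of the 13 mitotic members went from 899 ± 88 CPM (SD, n = 3) on d12 to 471 ± 9.01 CPM on d15 and 209 ± 37.8 CPM on d17 in AKR/J. It went from 866 ± 146 to 433 ± 39.4 and 170.0 ± 7.57 CPM in C57BL/6J, and from 763 ± 231 to 333 ± 15.4 and 168 ± 3.95 CPM in Cav1-null mice. In each strain the 3 days did not overlap.

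The sums of the 16 transport members followed no common course. They were 1446 ± 243, 2933 ± 473 and 2970.0 ± 153 CPM in AKR/J on d12, d15 and d17, and 2567 ± 215, 2688 ± 129 and 3282 ± 274 CPM in Cav1-null mice. In C57BL/6J they were 3618 ± 1123, 5807 ± 277 and 4226 ± 1339 CPM, with a spread on d12 and d17 that other groups did not have. The reads of the transport class, not corrected for length, were 1.41 to 6.13 times those of the mitotic class in the d12 libraries and 12.6 to 32.5 times in those of d17.

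**Figure D1:**
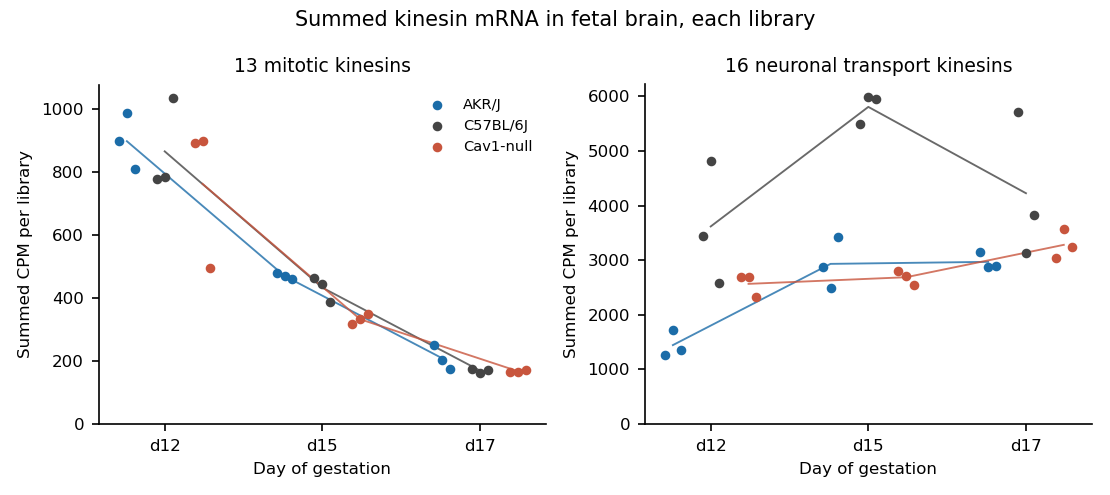
Summed CPM of the 13 mitotic kinesins (left) and the 16 transport kinesins (right) against the day of gestation; each point is a library and lines join the means of the 3 libraries of a strain and day. Mitotic sums fell from 497 to 1035 CPM on d12 to 162 to 249.8 CPM on d17, while transport sums of C57BL/6J stood above the other strains on d15.

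Between d12 and d15 (early phase), 12 of 13 mitotic kinesins were called lower in AKR/J, as were 13 in C57BL/6J and 12 of those in Cav1-null mice, beside 14%, 7.8% and 11.8% of all genes tested. Between d15 and d17 (late phase), 13, 12 and 13 were called lower, beside 10.4%, 5.58% and 12.8%. No mitotic member was called higher in any of these comparisons, and the log2 fold change was negative for each of the 13 in all 6. Median log2 fold changes were -0.92, -1.10 and -1.19 in the early phase and -1.25, -1.31 and -1.02 in the late phase for AKR/J, then C57BL/6J, then Cav1-null mice, while those of all genes tested lay from -0.04 to 0.03.

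The calls that were missed were Kif20a in AKR/J early (-0.48), Kif18a in C57BL/6J late (-0.72) and Kifc5b in Cav1-null mice early (-0.63). The other 10 mitotic members were called in all 6 comparisons. With the trend in GC content removed, 11, 13 and 12 were called lower in the early phase, beside 28.5%, 20.5% and 24.4% of all genes called in either direction, and 13 in each strain in the late phase, beside 21.3%, 18.6% and 31.4%. Scaling by library size alone, which put the median gene at a log2 fold change of 0.46 in AKR/J early, left 1 of 13 called there, with each value still negative. With replicate 2 alone standing for AKR/J on d12, a fit that takes its spread from the 3 d15 libraries and assumes that the lone library varies like them, 13 of 13 were called in the same comparison, beside 14.1% of all genes. Leaving out d15 replicate 1, 2 or 3 lowered the count to 5, 7 or 5 in AKR/J early, beside 13.7%, 21.7% and 12.4% of all genes called. In C57BL/6J early it was 0 for whichever library of d15 was left out, beside 0.0303%, 0% and 0.0101%, and leaving out d12 replicate 1 gave 6, beside 1.67%. In C57BL/6J late, 7, 5 and 2 were called without d15 replicate 1, d15 replicate 2 or d17 replicate 3, beside 1.77%, 1.29% and 0.767% of all genes.

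Kif11 (Eg5, ENSMUSG00000012443, chr19:37364799-37410307 of GRCm39) slides spindle microtubules apart and so keeps the spindle bipolar. AKR/J libraries held 132, 134 and 120.2 CPM on d12, 83.1, 84.6 and 85.2 CPM on d15 and 45.4, 27.8 and 21.99 CPM on d17. C57BL/6J had 165, 157 and 206 CPM, 95.6, 95.05 and 76.03 CPM and 34.5, 32.9 and 37.8 CPM on these days. Cav1-null libraries had 228, 222 and 114 CPM, 75.2, 77.4 and 74.2 CPM and 32.5, 35.6 and 37.1 CPM. Values fell without overlap from each day to the next in every strain; the third Cav1-null library of d12 was low beside the other two. Log2 fold changes were -0.66 ± 0.14, -1.04 ± 0.16 and -1.31 ± 0.22 in the early phase and -1.39 ± 0.23, -1.28 ± 0.14 and -1.10 ± 0.08 in the late phase for AKR/J, then C57BL/6J, then Cav1-null mice, and all 6 passed the test (adjusted p at most 0.0183).

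Kif23 (MKLP1, ENSMUSG00000032254, chr9:61823187-61854074) is a subunit of centralspindlin, the complex that organises the central spindle and the midbody. In AKR/J it measured 104, 140.1 and 95.1 CPM on d12, 63.3, 60.6 and 52.1 CPM on d15 and 29.1, 23.9 and 19.1 CPM on d17. For C57BL/6J the values were 87.8, 83.3 and 111, then 44.9, 43.9 and 37.6, then 16.6, 16.6 and 15.7 CPM. The Cav1-null values ran 89.1, 88.9 and 52.3, then 31.6, 31.1 and 37.6, then 17.03, 15.8 and 19.2 CPM. The order of the days was the same in each strain, with no overlap between neighbouring days. Its log2 fold changes of -0.99, -1.21 and -1.19 in the early phase and -1.27, -1.31 and -0.94 in the late phase were called in all 6 comparisons.

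Kif20a (MKLP2), which brings the chromosomal passenger complex to the central spindle, was the mitotic member with the smallest early change in AKR/J. The AKR/J values were 26.03, 43.9 and 29.2 CPM on d12, 25.3, 24.01 and 24.1 CPM on d15 and 12.5, 7.42 and 7.28 CPM on d17. Libraries of C57BL/6J gave 48.7, 54.1 and 67.4 CPM, 30.7, 24.8 and 25.1 CPM and 10.8, 5.89 and 8.25 CPM. In Cav1-null mice they were 43.8, 50.9 and 28.4 CPM, 14.7, 14.4 and 14.6 CPM and 7.19, 5.93 and 7.77 CPM. In AKR/J on d12, replicate 2 was high and replicates 1 and 3 stood close to the d15 libraries, above which they nevertheless remained; the log2 fold change there was -0.48 ± 0.22 (adjusted p = 0.14). The other 5 changes of Kif20a were called, at -1.13 and -1.49 in the early phase and -1.42, -1.63 and -1.06 in the late phase.

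Kif4, on the X chromosome, condenses chromosomes and sets the length of the central spindle. AKR/J libraries held 44.2, 64.5 and 47.6 CPM on d12, 33.7, 31.3 and 38.6 CPM on d15 and 15.02, 11.9 and 9.49 CPM on d17. C57BL/6J had 49.1, 61.6 and 78.7 CPM, 34.2, 31.4 and 26.2 CPM and 10.6, 7.19 and 9.99 CPM on these days. Cav1-null libraries had 57.4, 62.6 and 32.8 CPM, 16.1, 17.02 and 19.5 CPM and 8.36, 9.22 and 8.24 CPM. Each strain fell from day to day without overlap. It had the largest fall of any kinesin in the Cav1-null early phase, with a log2 fold change of -1.53 ± 0.21 (adjusted p = 0.00181).

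Kifc1 (HSET), a minus-end motor that focuses spindle poles, followed the same course. In AKR/J it measured 26.4, 39.8 and 20.7 CPM on d12, 13.4, 16.2 and 16.7 CPM on d15 and 7.78, 7.02 and 5.71 CPM on d17. For C57BL/6J the values were 33.4, 40.7 and 51.4, then 25.4, 25 and 23.9, then 11.04, 8.08 and 8.06 CPM. The Cav1-null values ran 36.6, 32.03 and 21.3, then 13.9, 12.7 and 12.8, then 7.73, 8.68 and 8.82 CPM. No neighbouring days overlapped, and all 6 changes were called, with log2 fold changes from -1.39 to -0.64. Its copy Kifc5b ran from 38.6 CPM in an AKR/J library of d12 to 5.70 CPM in a Cav1-null library of d17 and was called in 5 of the 6.

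Kif18a (ENSMUSG00000027115, chr2:109111083-109173023), which damps chromosome movement at the metaphase plate, had the largest fall of any kinesin in the early phase of C57BL/6J and in that of AKR/J. The AKR/J values were 122, 85.5 and 110.4 CPM on d12, 27.7, 26.1 and 25.04 CPM on d15 and 13.9, 17.2 and 13.6 CPM on d17. Libraries of C57BL/6J gave 33.98, 24.3 and 43.8 CPM, 14.8, 14.9 and 11.97 CPM and 5.90, 9.75 and 8.56 CPM. In Cav1-null mice they were 46.05, 58.2 and 28.9 CPM, 21.6, 20.7 and 27.5 CPM and 11.1, 9.63 and 10.98 CPM. AKR/J stood far above the other strains on d12. Its early log2 fold change was -2.06 ± 0.18 (adjusted p = 0.000758) in AKR/J and -1.35 ± 0.24 (adjusted p = 0.0221) in C57BL/6J.

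In the late phase the largest falls were those of Kif2c (MCAK), which takes microtubules apart at centromeres, in AKR/J and Cav1-null mice, and of Kif18b in C57BL/6J. Reads of Kif2c were present in every library. AKR/J libraries held 51.4, 51.4 and 45.9 CPM on d12, 28.2, 24.2 and 29.3 CPM on d15 and 13.1, 7.42 and 7.92 CPM on d17. Cav1-null libraries had 56.3, 47.6 and 27.5 CPM, 15.2, 15.8 and 16.04 CPM and 5.65, 5.80 and 6.40 CPM. The lowest d15 value of Kif2c lay above the highest d17 value in both. Its late log2 fold changes were -1.50 ± 0.21 (adjusted p = 0.00253) in AKR/J and -1.39 ± 0.12 (adjusted p = 3.87e-06) in Cav1-null mice. Kif18b, a plus-end motor that limits astral microtubules, had 23.3, 20.01 and 20.2 CPM on d15 and 8.42, 3.42 and 5.83 CPM on d17 in C57BL/6J, a log2 fold change of -1.78 ± 0.32 (adjusted p = 0.0158).

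The remaining mitotic members fell with these. Kif15, which backs up Kif11 on the spindle, ran from 68.1 to 146 CPM on d12 to 18.2 to 36.5 CPM on d17. Kif22, which pushes chromosome arms outward, had the smallest late fall in AKR/J and Cav1-null mice (-0.72 and -0.57). Kif14, a midbody motor that works with citron kinase, and Kif20b, a midbody motor of dividing progenitors, were called lower in all 6 comparisons as well.

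Genes that work beside the mitotic motors moved the same way. Of 26 spindle and cytokinesis partners, 22, 25 and 25 were called lower in the early phase (AKR/J, then C57BL/6J, then Cav1-null mice), beside 14%, 7.8% and 11.8% of all genes tested, and 26, 24 and 25 in the late phase, beside 10.4%, 5.58% and 12.8%, and none was called higher in these 6 comparisons. In C57BL/6J early, 6, 0 and 2 of all genes were called without d15 replicate 1, 2 or 3. The early count of 25 partners in that strain thus rests on each of these libraries. The largest change was that of Birc5, the survivin subunit of the chromosomal passenger complex, with a log2 fold change of -2.25 ± 0.23 (SE, adjusted p = 0.00104) in the AKR/J early phase.

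Summed levels of 8 neural progenitor markers moved less than the mitotic kinesins. They were 1818 to 2335 CPM on d12 and 1291 to 1515 CPM on d17 in C57BL/6J, and 1540 to 1913 CPM and 1149 to 1515 CPM in Cav1-null mice. In AKR/J they were 2052 to 4199 CPM on d12 and 1347 to 1815 CPM on d17, with the highest values in the d12 libraries that held the most erythroid mRNA. The part of cell composition in the fall of the mitotic kinesins was not tested.

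**Figure D2:**
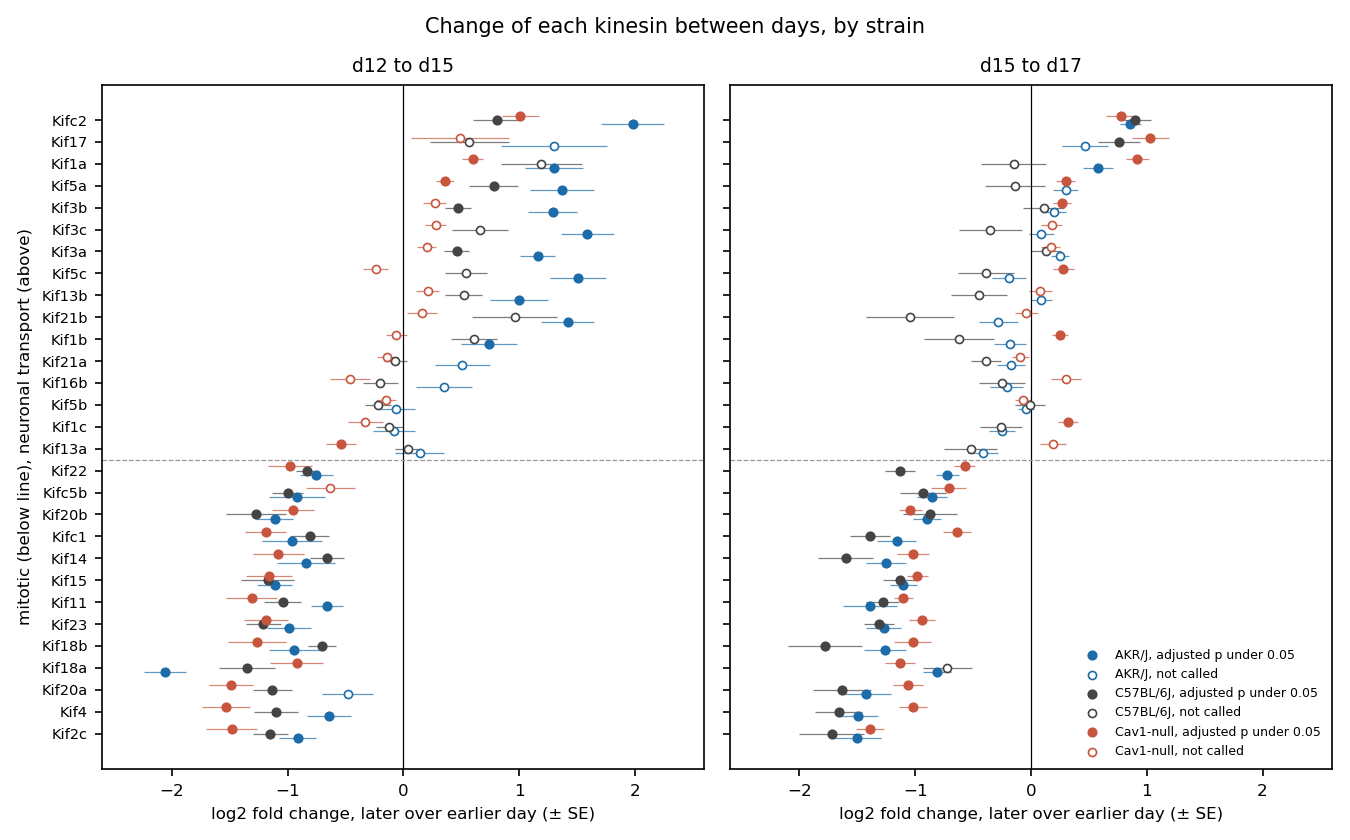
Log2 fold change (later over earlier day, ± SE) of the 13 mitotic kinesins (below the dashed line) and the 16 transport kinesins (above it) for d12 to d15 (left) and d15 to d17 (right); colours are strains, filled points have an adjusted p under 0.05 and open points do not. Each mitotic point lies left of 0, while transport points scatter on both sides, from -1.04 to 1.98.

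Calls of higher transport kinesins were most numerous in the AKR/J early phase and, as measured with edgeR on 6 libraries, in the Cav1-null late phase. In the early phase 10 of 16 were called higher in AKR/J, as were 4 in C57BL/6J and 3 of those in Cav1-null mice, beside 14.8%, 7.08% and 11.6% of all genes tested. They were Kif1a, Kif1b, Kif3a, Kif3b, Kif3c, Kif5a, Kif5c, Kif13b, Kif21b and Kifc2 in AKR/J, Kif3a, Kif3b, Kif5a and Kifc2 in C57BL/6J, and Kif1a, Kif5a and Kifc2 in Cav1-null mice. In the late phase 2, 2 and 8 were called higher, beside 11.6%, 7.46% and 14.5%: Kif1a and Kifc2 in AKR/J, Kif17 and Kifc2 in C57BL/6J, and Kif1a, Kif1b, Kif1c, Kif3b, Kif5a, Kif5c, Kif17 and Kifc2 in Cav1-null mice. Median log2 fold changes were 1.23, 0.53 and 0.18 in the early phase and 0.02, -0.26 and 0.26 in the late phase. As measured, the only transport member called lower between days was Kif13a, in Cav1-null mice early (-0.54 ± 0.13, adjusted p = 0.0172). This call was lost in the model of all 27 libraries (adjusted p = 0.0566), which called Kif13a lower in C57BL/6J late (-0.59, adjusted p = 0.026). In AKR/J late it was called lower by DESeq2 (-0.42, adjusted p = 0.0217), with RLE factors, with library sizes alone and without a filter on low counts.

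In AKR/J the sum of the 8 neuron markers went from 1795 to 2378 CPM on d12 to 4096 to 5969.5 CPM on d15, and that of the erythroid markers from 33232 to 197974 CPM to 2012 to 3070.0 CPM; their part in the early rise of transport members was not tested. Transport counts between days depended on libraries and on their trends. With the trends in GC content and length removed, 8, 5 and 4 were called higher and 1, 1 and 2 lower in the early phase (AKR/J, then C57BL/6J, then Cav1-null mice), with medians of 0.64, 0.24 and 0.10, beside 28.5%, 19.7% and 24.5% of all genes called in either direction. In the late phase 3, 2 and 4 were then called higher and 0, 1 and 2 lower, beside 21.9%, 19% and 31.6% of all genes called. The calls lost with both removed were those of Kif1b and Kif13b in AKR/J early (0.09 and 0.43) and of Kif1b, Kif1c, Kif5a and Kif5c in Cav1-null mice late (0.00 to 0.16). With replicate 2 alone standing for AKR/J on d12, 7 were called higher in that early phase, beside 14.1% of all genes called, and the median was 0.77. In C57BL/6J early, leaving out d12 replicate 1 (1.67% of all genes called), or whichever library of d15 (at most 0.0303%), left 0 called higher, and there were 10 without d12 replicate 2 (29.8%) or by DESeq2, which called 25.2% of all genes against 14.9%. In Cav1-null mice late, 3 were called higher without d15 replicate 3 (21.6% of all genes called), 5 without d15 replicate 2, d17 replicate 2 or d17 replicate 3 (18.9%, 21% and 20.7%), and 0 in the model of all 27 libraries, which called 3.56% of all genes against 27.3%.

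Levels per kilobase, here and below, were divided by the length of all annotated exons of a gene merged, which can exceed any single transcript. For Kif1b this was 24698 bases, against 11164 in its longest transcript, so that the order of genes depends on the length used. By this measure Kif1a came first among the kinesins on d17 in each strain. It had 41.6 ± 1.35, 76.8 ± 29.8 and 55.6 ± 6.20 CPM per kb (SD, n = 3) in AKR/J, then C57BL/6J, then Cav1-null mice. Kif5c was next, at 32.7 ± 3.01, 47.0 ± 13.6 and 36.6 ± 3.76 CPM per kb; in C57BL/6J the order of the first places was within the spread. On d12 the highest mean in AKR/J was that of Kif5b (16.6 ± 1.44 CPM per kb), within the spread of Kif2a (16.1 ± 2.13) and Kif21a (15.7 ± 4.10). In C57BL/6J it was that of Kif21b (43.9 ± 24.5), within the spread of Kif5c (43.1 ± 11.6), and in Cav1-null mice that of Kif5c (35.6 ± 4.35), with Kif21a next (23.5 ± 2.69). The mean of Kif11 ranked 4, 8 and 4 among the kinesins.

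Kinesin-1, the classical axonal motor, has its heavy chain encoded by Kif5a, Kif5b and Kif5c; Kif5b is made in most cell types, and the other two mainly in neurons. Reads of Kif5a were present in every library. In AKR/J it measured 72.7, 135 and 76.3 CPM on d12, 249, 212 and 296 CPM on d15 and 309, 305 and 309 CPM on d17. C57BL/6J had 255, 336 and 172 CPM, 421, 449.5 and 475 CPM and 549.5, 286 and 330.3 CPM on these days. The Cav1-null values ran 184, 182 and 172, then 244, 235 and 211, then 266, 305 and 275 CPM. Levels of Kif5a rose without overlap in the early phase of each strain; the C57BL/6J libraries of d17 ranged from below to above those of d15. It was called higher in 4 of 6 comparisons, with early log2 fold changes of 1.37 ± 0.28, 0.78 ± 0.21 and 0.36 ± 0.08 and a late one of 0.30 ± 0.08 in Cav1-null mice.

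Kif5b stayed close to the same level on each day. The AKR/J values were 225, 193 and 225 CPM on d12, 216, 206 and 216 CPM on d15 and 215, 202 and 197 CPM on d17. For C57BL/6J the values were 209, 206 and 237, then 194, 204 and 185, then 173, 203 and 180.3 CPM. In Cav1-null mice they were 237, 255 and 214 CPM, 201, 215 and 219.8 CPM and 194, 194 and 213 CPM. The 27 libraries lay between 173 and 255 CPM. No change between days was called, and log2 fold changes were -0.22 to -0.01.

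Kif5c gave, per kilobase, the largest share of the heavy chain mRNA in each group but AKR/J on d12, where that of Kif5b was larger. AKR/J libraries held 159.7, 216 and 170.1 CPM on d12, 506, 426 and 676 CPM on d15 and 514, 438 and 443 CPM on d17. Libraries of C57BL/6J gave 609, 780.3 and 451 CPM, 849, 958 and 943 CPM and 858, 470 and 677 CPM. Cav1-null libraries had 523, 559 and 438 CPM, 459, 441 and 387 CPM and 467, 574 and 520.5 CPM. The AKR/J libraries of d12 were low, and libraries of d15 and d17 overlapped in AKR/J and C57BL/6J but not in Cav1-null mice. The log2 fold change was 1.51 ± 0.24 (adjusted p = 0.00415) in AKR/J early and 0.28 ± 0.09 (adjusted p = 0.0351) in Cav1-null mice late, and the other 4 values, from -0.39 to 0.54, were not called.

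Per kilobase, the Kif5b share of kinesin-1 heavy chain mRNA went from 44.6 ± 7.77% (SD, n = 3) on d12 to 22 ± 3.15% and 21.0 ± 0.353% on d15 and d17 in AKR/J. It was 21.4 ± 6.28%, 12.7 ± 0.896% and 15.9 ± 5.15% in C57BL/6J, and 26.3 ± 0.361%, 24.7 ± 2.33% and 20.3 ± 1.72% in Cav1-null mice. Group means of the Kif5a share were 21.6% to 26.6% on d12 and 32.2% to 35.7% on d17. These shares were described and not tested.

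Kinesin-3 motors of the KIF1 group carry synaptic vesicle precursors (Kif1a and Kif1b), mitochondria (a Kif1b isoform) and other vesicles (Kif1c). Reads of Kif1a were present in every library. In AKR/J it measured 104, 158 and 100 CPM on d12, 292, 253 and 376 CPM on d15 and 447, 441 and 469 CPM on d17. C57BL/6J had 384, 657 and 205 CPM, 900.3, 983 and 1021 CPM and 1206, 606 and 695 CPM on these days. The Cav1-null values ran 219, 217 and 196, then 349, 322 and 288, then 550, 680.2 and 584 CPM. AKR/J and Cav1-null libraries rose from each day to the next without overlap. In C57BL/6J the d12 libraries were spread widely and the first d17 library stood well above the other two. Kif1a was called higher in both phases of AKR/J (1.30 ± 0.25 and 0.58 ± 0.13) and of Cav1-null mice (0.60 ± 0.09 and 0.92 ± 0.10). In the model of all 27 libraries the AKR/J late call and both Cav1-null calls were lost (adjusted p = 0.233, 0.174 and 0.0732). The AKR/J early change was 0.94 with replicate 2 alone for d12. In C57BL/6J the values were 1.19 ± 0.35 (adjusted p = 0.0594) and -0.15 ± 0.28 (adjusted p = 0.74). The first of these was called by DESeq2 (1.22, adjusted p = 0.00362) and in the model of all 27 libraries (1.22, adjusted p = 0.00467). It was also called with either trend removal and without a filter on low counts.

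Shares within the KIF1 group rest on the length used, which was 24698 bases of merged exons for Kif1b against 11164 in its longest transcript. Per kilobase of merged exons, the share of Kif1a mRNA in this group was 39 ± 2.94%, 53.0 ± 2.06% and 65.9 ± 1.58% on d12, d15 and d17 in AKR/J. It was 48.7 ± 8.96%, 63.1 ± 1.09% and 69.4 ± 1.26% in C57BL/6J and 45.9 ± 1.21%, 58.4 ± 1.21% and 68.9 ± 1.31% in Cav1-null mice, with no overlap between days in any strain. The group means of the Kif1c share were 13.5% to 22.1% on d12 and 6.71% to 8.01% on d17. No share in kinesin-2 moved steadily over the days in every strain. Of the mRNA of Kif3a, Kif3b and Kif3c, group means were 33.5% to 46.8% for Kif3a, 27.1% to 30.3% for Kif3b and 25.1% to 39.3% for Kif3c.

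Kif3c is a neuron-enriched partner of Kif3a in kinesin-2, the motor of axons and of cilia. The AKR/J values were 32.4, 51.6 and 31.8 CPM on d12, 121, 103 and 137 CPM on d15 and 135, 130 and 113 CPM on d17. For C57BL/6J the values were 150.1, 184 and 84.5, then 210.2, 238 and 229.6, then 233, 108 and 168 CPM. In Cav1-null mice they were 106, 107 and 88.4 CPM, 129, 122 and 113 CPM and 119.8, 150.5 and 139.9 CPM. AKR/J libraries of d12 were the lowest of all. In the AKR/J early phase, Kif3c rose by 1.59 ± 0.23 (SE, adjusted p = 0.00305) on the log2 scale, along with Kif3a (1.16 ± 0.15) and Kif3b (1.29 ± 0.21); Kif3a and Kif3b were also called higher in C57BL/6J early (0.46 and 0.47), where Kif3c was not (0.66 ± 0.24, adjusted p = 0.0994).

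Kif21b (ENSMUSG00000041642, chr1:136059098-136105763) is a kinesin-4 that slows microtubule growth in dendrites. As measured, it differed most from C57BL/6J among the transport members in AKR/J on d12 and in AKR/J and Cav1-null mice on d15. AKR/J libraries held 119.5, 155 and 109.7 CPM on d12, 391, 269.9 and 397 CPM on d15 and 345, 268 and 250.5 CPM on d17. Libraries of C57BL/6J gave 555, 876 and 250.3 CPM, 1055, 1174 and 1119.5 CPM and 849, 289.9 and 411 CPM. Cav1-null libraries had 323, 274 and 216 CPM, 319, 302 and 285 CPM and 251, 332 and 292 CPM. The Cav1-null libraries lay between 216 and 332 CPM on all days, AKR/J rose in the early phase (1.42 ± 0.23, adjusted p = 0.00445), and C57BL/6J libraries were spread widely on d12 and d17. Its C57BL/6J log2 fold changes were 0.96 ± 0.37 and -1.04 ± 0.38, with adjusted p of 0.113 and 0.103.

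Kifc2 (ENSMUSG00000004187, chr15:76543981-76552402), a minus-end motor that is made in neurons and acts in their processes, was the only kinesin called higher in all 6 comparisons of days. In AKR/J it measured 8.71, 17.6 and 10.7 CPM on d12, 54.4, 46.95 and 49.96 CPM on d15 and 89.03, 83.2 and 99.2 CPM on d17. C57BL/6J had 35.6, 43.8 and 23.2 CPM, 56.5, 57.1 and 71.8 CPM and 104, 115 and 113 CPM on these days. The Cav1-null values ran 31.5, 31.1 and 43.97, then 78.6, 74.9 and 60.9, then 98.3, 149 and 119 CPM. Every strain rose from each day to the next without overlap. Log2 fold changes were 1.98 ± 0.27, 0.81 ± 0.21 and 1.01 ± 0.16 in the early phase and 0.86 ± 0.09, 0.90 ± 0.14 and 0.78 ± 0.13 in the late phase, and the adjusted p was at most 0.0464. It was the member with the largest called rise in 5 of the 6 comparisons. The exception was Cav1-null mice late, where Kif17, a dendritic motor of NMDA receptor vesicles, rose from 3.45, 3.88 and 3.42 CPM to 7.36, 7.73 and 6.91 CPM (1.03 ± 0.16, adjusted p = 0.000316). Kif17 was also called higher in C57BL/6J late (0.76 ± 0.18, adjusted p = 0.0355), and together with Kifc2 it moved there against the class median of -0.26. That call of Kif17 was lost without a filter on low counts, in the model of all 27 libraries and with the replicate block (adjusted p = 0.0572, 0.175 and 0.0589).

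**Figure D3:**
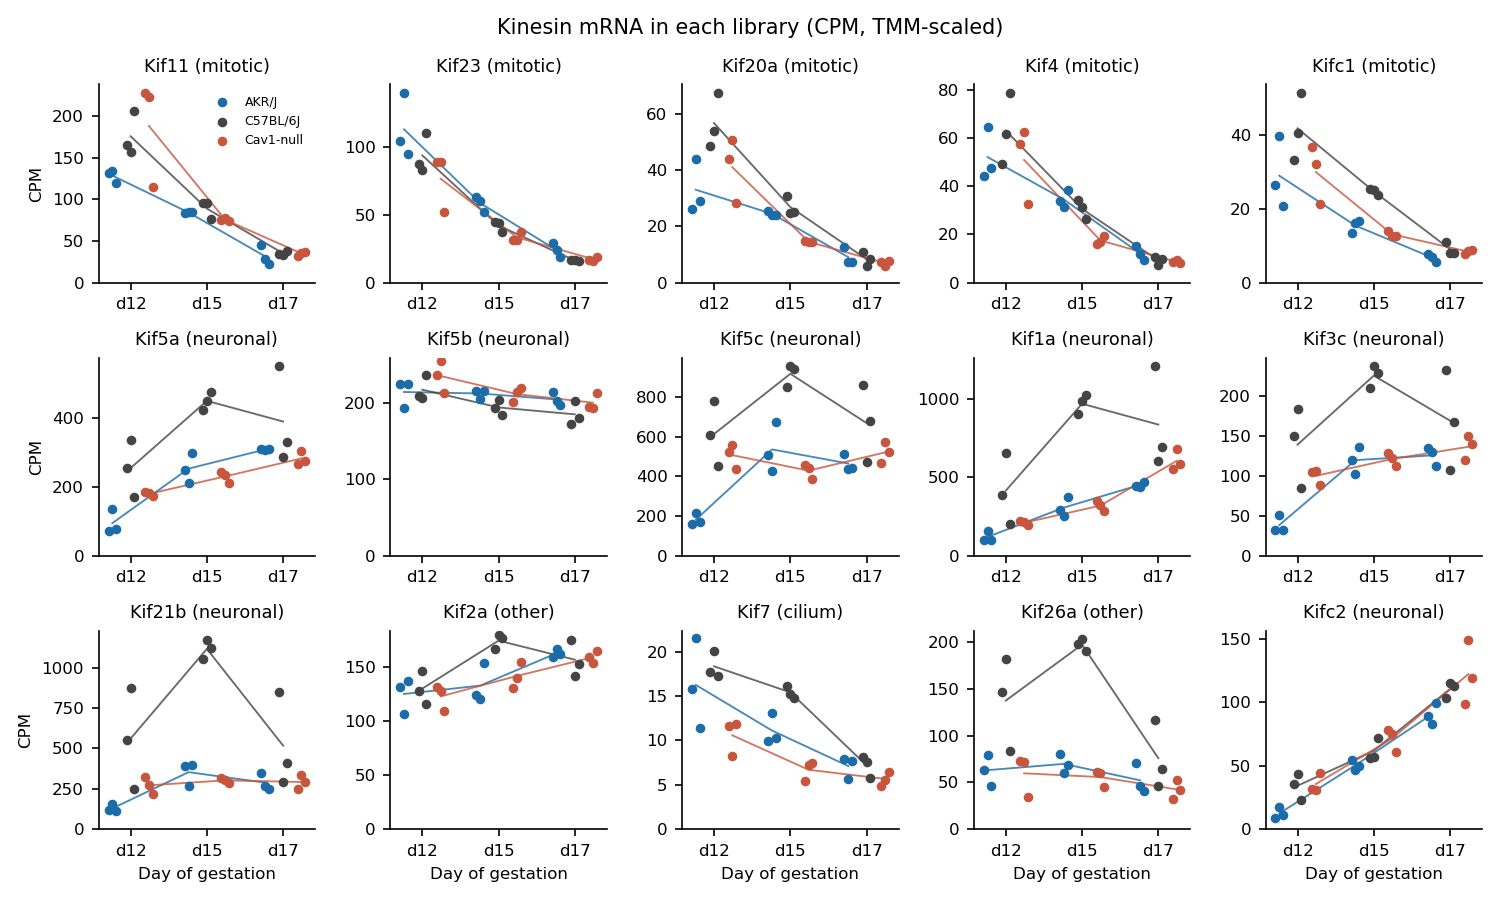
CPM of 15 kinesins against the day of gestation, 1 panel a gene with its class in brackets; each point is a library, colours are strains and lines join the means of 3 libraries. Kif11, Kif23, Kif20a, Kif4 and Kifc1 step down from d12 to d17, Kifc2 steps up, Kif5b stays between 173 and 255 CPM, and Kif1a, Kif5c and Kif21b spread widely in C57BL/6J.

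The other roles held few changes between days. Kifc3 had positive log2 fold changes in all 6 comparisons (0.24 to 1.24) and was called higher in AKR/J early and Cav1-null mice late. The first of these calls was lost with the trends in GC content and length removed (0.76, adjusted p = 0.0519). The second was lost in the model of all 27 libraries (0.67, adjusted p = 0.101). Kif2a, which shortens microtubules at the tips of growing neuronal processes, belongs to the same family as Kif2c but was not called lower on any day. The AKR/J values were 132, 106 and 137 CPM on d12, 124, 121 and 154 CPM on d15 and 159.6, 167 and 163 CPM on d17. For C57BL/6J the values were 128, 146 and 116, then 167, 180.1 and 178, then 176, 142 and 153 CPM. In Cav1-null mice they were 132, 128 and 109.5 CPM, 131, 140 and 155 CPM and 159, 154 and 165 CPM. Its libraries lay between 106 and 180.1 CPM on all days. It was called once, higher in C57BL/6J early (0.38 ± 0.10, adjusted p = 0.046). This call was lost with the trend in GC content removed (0.48, adjusted p = 0.0507), with those in GC content and length removed (0.35, adjusted p = 0.0723), without a filter on low counts (adjusted p = 0.0675) and with the replicate block (adjusted p = 0.12).

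Kif7, the ciliary regulator of hedgehog signalling, was low throughout. AKR/J libraries held 15.8, 21.5 and 11.4 CPM on d12, 9.96, 13.1 and 10.3 CPM on d15 and 7.95, 5.68 and 7.72 CPM on d17. Libraries of C57BL/6J gave 17.7, 20.1 and 17.2 CPM, 16.2, 15.3 and 14.8 CPM and 8.19, 7.59 and 5.77 CPM. Cav1-null libraries had 11.6, 8.27 and 11.9 CPM, 5.37, 7.20 and 7.49 CPM and 4.92, 5.59 and 6.49 CPM. Means stepped down from day to day in each strain, but neighbouring days overlapped in the AKR/J early phase and the Cav1-null late phase. The log2 fold change was negative in all 6 comparisons and called in 1 as measured, C57BL/6J late (-1.04 ± 0.18, adjusted p = 0.014). That call was lost with the trend in GC content removed (-0.70, adjusted p = 0.0542) and with those in GC content and length removed (-0.58, adjusted p = 0.116), and the early falls in AKR/J (-0.84 and -1.13) and in C57BL/6J (-0.57 and -0.71) were then called.

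Kif26a, an atypical kinesin with no known motor activity, was highest in C57BL/6J on d12 and d15 as measured. The d12 difference of AKR/J from C57BL/6J changed sign with the trends in GC content and length removed. In AKR/J it measured 63.1, 79.5 and 46.4 CPM on d12, 80.6, 59.7 and 68.8 CPM on d15 and 70.2, 45.8 and 40.4 CPM on d17. C57BL/6J had 146, 182 and 83.7 CPM, 198, 203 and 190 CPM and 117, 46.6 and 64.04 CPM on these days. The Cav1-null values ran 73.1, 71.5 and 34.2, then 61.4, 60.2 and 45.2, then 32.6, 52.8 and 42.05 CPM. In C57BL/6J the 3 libraries of d15 stood together and those of d17 below them. The late fall in this strain (-1.31 ± 0.32, adjusted p = 0.0381) was the only called change of Kif26a as measured; with both trends removed, those in AKR/J early (-0.71) and Cav1-null mice late (-0.65) were called too. Its relative Kif26b was called higher in Cav1-null mice late (0.80 ± 0.09, adjusted p = 4.12e-05), though not in the model of all 27 libraries (adjusted p = 0.215).

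Among the cilium motors, Kif24, which removes centriolar microtubules and holds back cilium assembly, was called lower in C57BL/6J in both phases (-0.78 and -0.70) and in AKR/J late (-0.49), against a class median of 0.02 in the first of these. The late call in C57BL/6J was lost with the trend in GC content removed (-0.58, adjusted p = 0.0659), with both trends removed (-0.45, adjusted p = 0.158) and with library sizes alone (adjusted p = 0.0901), the early one with the replicate block (adjusted p = 0.0688), and that in AKR/J in the model of all 27 libraries (adjusted p = 0.149). Kif27, a relative of Kif7, was called higher in AKR/J early (1.03). This call was lost with both trends removed (0.65, adjusted p = 0.0991), with the replicate block (adjusted p = 0.0721) and with replicate 2 alone for AKR/J on d12 (0.70, adjusted p = 0.149). Kif6, Kif9 and Kif19a were not called between days as measured, and Kif19a reached 7.71 CPM at most.

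Adaptors and the opposing motor moved less uniformly than the spindle partners. Of 22 motor adaptors and cargo linkers, 13, 4 and 7 (AKR/J, then C57BL/6J, then Cav1-null mice) were called higher in the early phase, beside 14.8%, 7.08% and 11.6% of all genes tested, and 3, 2 and 7 in the late phase, beside 11.6%, 7.46% and 14.5%. In the late phase 1 was called lower in AKR/J and 1 in C57BL/6J, beside 10.4% and 5.58% of all genes tested. The largest change was in Apba1, a linker of kinesin-2 motor Kif17 to its vesicles, at 2.39 ± 0.27 (log2, SE; adjusted p = 0.00136) in AKR/J early. Of 19 subunits of cytoplasmic dynein and dynactin, which drive transport toward the minus end, 5 were called higher and 4 lower in AKR/J early, beside 14.8% and 14% of all genes tested, and 4 higher and 6 lower in Cav1-null mice late, beside 14.5% and 12.8%. In each of the other 4 comparisons 1 to 3 were called higher and 1 or 2 lower. Of all genes tested, 7.08% to 11.6% were called higher and 5.58% to 11.8% lower in these. Dync1i1, a neuronal intermediate chain, rose by 2.93 ± 0.42 (log2, SE, adjusted p = 0.0176) in C57BL/6J early. This call was lost with the replicate block and without d15 replicate 2, where 0% of all genes were called.

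Strains were compared with C57BL/6J on each day, and the same C57BL/6J libraries serve both comparisons of a day. On d12, 13 of 40 kinesins were called between AKR/J and C57BL/6J, beside 28.6% of all genes tested. Of these, 1 mitotic member was higher in AKR/J and 10 of 16 transport members were lower, beside 14.5% and 14.1% of all genes tested in these directions. The median log2 difference was -0.12 for the mitotic and -1.03 for the transport members. With the replicate number as a block, 2 mitotic members were higher, 1 was lower and 12 transport members were lower, beside 34% of all genes called. The labels name no pairing. Same-numbered libraries of these 2 groups deviated together (correlations of 0.114, 0.347 and 0.296), which does not show that they were paired.

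Kif18a was the member higher in AKR/J on d12, with 122, 85.5 and 110.4 CPM against 34.0, 24.3 and 43.8 CPM in C57BL/6J (1.78 ± 0.26, adjusted p = 0.0115). Its lowest AKR/J library was above the highest of C57BL/6J. The largest call in the other direction was Kif21b (-1.98 ± 0.41, adjusted p = 0.014), with Kif3c (-1.70), Kif1a (-1.63) and Kif5c (-1.61) after it.

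These d12 counts depended on single libraries of both strains. With AKR/J replicate 2 alone, which held the least erythroid mRNA of the 3 and is assumed to vary like the C57BL/6J libraries, the transport median was -0.77. That fit called 9 of 21659 genes and 0 kinesins, so that its count cannot be read for the members. With the trend in GC content removed, 8 transport members were lower, beside 21.9% of all genes called, and with the trends in GC content and length removed, 4 (Kif3a, Kif3b, Kif3c and Kif5c), beside 17.8%. Without replicate 2 of C57BL/6J on d12 no kinesin was called, beside 0.122% of all genes, without AKR/J replicates 1 or 3 it was 4 each, beside 6.8% and 7.48%, and without C57BL/6J replicate 1 it was 5, beside 8%. The part of the erythroid and neuronal cell content in these differences was not tested.

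On d15, 22 of 39 kinesins were called between AKR/J and C57BL/6J, beside 41.1% of all genes tested. Mitotic members were called in both directions as measured, with 4 higher (Kif15, Kif18a, Kif20b and Kif23) and 2 lower (Kif18b and Kifc1), beside 18.8% and 22.3% of all genes tested. With the trend in GC content removed, or those in GC content and length, 5 were higher and 0 were lower, beside 32.7% and 25.8% of all genes called. Kif18a was again the furthest apart upward, at 27.7, 26.1 and 25.0 CPM against 14.8, 14.9 and 12.0 CPM (0.99 ± 0.12, adjusted p = 0.000731). Among transport members 10 of 16 were lower and Kif5b was higher (0.20 ± 0.06, adjusted p = 0.0406). Kif5b turned to -0.12 with the trend in GC content removed. Neuron markers were lower in AKR/J too: their sum reached at most 5969.5 CPM there, while each C57BL/6J library of d15 held at least 6539 CPM. What share of the transport differences goes with neuronal cell content was not tested.

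The transport members furthest below C57BL/6J on d15 were Kif21b and Kif1a. Kif21b had 391, 269.9 and 397 CPM in AKR/J and 1055, 1174 and 1120 CPM in C57BL/6J (-1.60 ± 0.14, adjusted p = 0.000281). Kif1a had 292, 253 and 376 CPM against 900.3, 983 and 1021 CPM (-1.59 ± 0.14, adjusted p = 0.000258). The 2 strains stood far apart for both genes. The 4 tested members of other roles, Kif2a, Kif26a, Kif26b and Kifc3, were lower as well, and Kif24 was higher (0.77).

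Between Cav1-null mice and C57BL/6J on d15, 30 of 39 kinesins were called, beside 58.6% of all genes tested. Mitotic members were lower in 9 cases and higher in 2 (Kif18a at 0.78 and Kif20b at 0.47), and transport members were lower in 12 and higher in 1 (Kif5b at 0.16), beside 31.8% of all genes tested lower and 26.8% higher. With the trend in GC content removed, Kif20b turned to -0.14 and Kif5b to -0.22. Medians as measured were -0.75 and -0.82. Neuron markers summed to 5719 to 5834 CPM in Cav1-null mice and 6539 to 7373 CPM in C57BL/6J on this day. The sums of the neural progenitor markers were 1347 to 1460 CPM and 1641 to 1708 CPM. The part of cell content in these differences was not tested. The largest difference was that of Kif26b, with 36.8, 32.3 and 31.2 CPM in Cav1-null mice and 116, 120 and 146 CPM in C57BL/6J (-1.89 ± 0.10, adjusted p = 1.13e-07). Kif21b came next (-1.84 ± 0.06, adjusted p = 1.92e-08), from 319, 302 and 285 CPM against the C57BL/6J values above.

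Both d15 comparisons share the C57BL/6J libraries in which genes of high GC content and long transcripts stood high. In those libraries the median of transcripts over 6000 bases minus that of transcripts under 2000 bases was 0.30 to 0.34 (log2), against -0.14 to 0.0 in the other d15 libraries. With the trend in GC content removed, 9 transport members were lower and 1 was higher in AKR/J, with a median of -0.33, beside 32.7% of all genes called; in Cav1-null mice 14 were lower and 2 higher, with a median of -0.36, beside 55.5%. The median of all genes was then 0.11 and 0.14. With the trends in GC content and length both removed, these counts were 3 lower and 1 higher (median -0.13) in AKR/J and 6 lower and 2 higher (median -0.08) in Cav1-null mice, beside 25.8% and 48.6%, so that the share of transport members called was then close to that of all genes.

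Members whose call was present under all 3 treatments of these trends were few among the transport motors. In AKR/J they were Kif1a, Kif1b and Kif21b, and in Cav1-null mice they were these 3 with Kif3c, Kif5c and Kif13a, all of them lower, beside 8.8% and 16.5% of all genes called lower under all 3. Kif1b, for example, had 410.3, 393 and 387 CPM in Cav1-null mice against 1010.0, 1092 and 1097 CPM in C57BL/6J, and the log2 difference was -1.38 as measured and -0.75 with both trends removed. Of the mitotic members of Cav1-null mice, 9 were lower as measured and 9 after each removal, of which 7 were lower in all 3, beside the same 16.5% of all genes (Kif14, Kif18b, Kif20a, Kif22, Kif23, Kif2c and Kif4). Their median went from -0.75 to -0.45 and -0.40, Kifc5b turned from -0.47 to 0.14 and 0.10, and members called higher went from 2 to 0 and 1. Kifc2 was not called on d15 in either strain as measured, and was higher than C57BL/6J in both with either removal (0.35 and 0.41 in AKR/J, 1.04 and 1.11 in Cav1-null mice). These members were noticed after their values were seen.

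**Figure D4:**
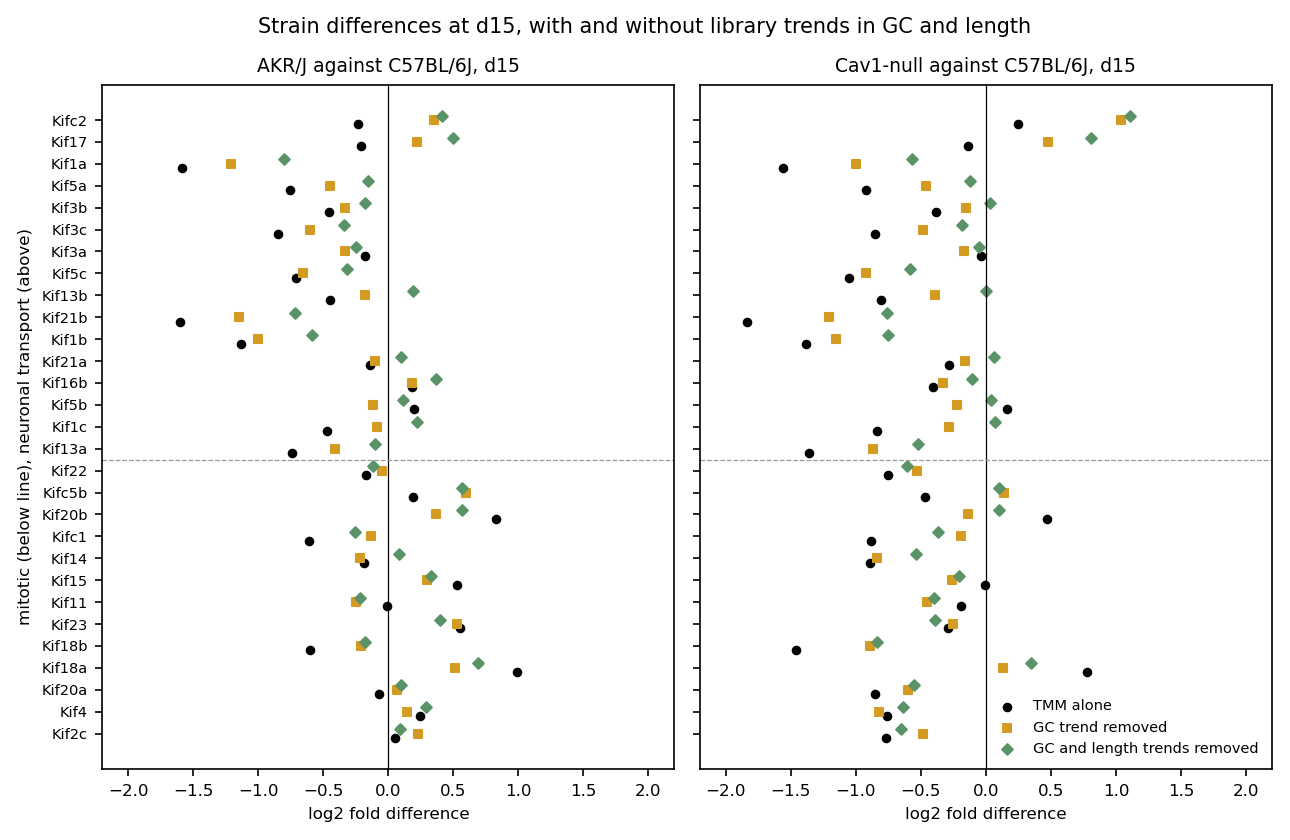
Log2 fold difference from C57BL/6J on d15 for AKR/J (left) and Cav1-null mice (right), with the 13 mitotic kinesins below the dashed line and the 16 transport kinesins above it; black circles use TMM scaling alone, yellow squares have the trend of each library in GC content removed, and green diamonds those in GC content and length. Of the 16 transport points of Cav1-null mice 13 lie nearer 0 as diamonds than as circles, while Kifc2 and Kif17 go from 0.25 and -0.14 to 1.11 and 0.81, and the median in Cav1-null mice goes from -0.82 to -0.36 and -0.08.

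On the remaining days no kinesin was called in the edgeR fit of 6 libraries with TMM scaling. AKR/J against C57BL/6J on d17 had 0 of 39 called, beside 0.742% of all genes tested, with 15 at an unadjusted p under 0.05 (21.2% of all genes) and 5 called by DESeq2, which called 6.58% of all genes. Cav1-null mice against C57BL/6J had 0 of 40 on d12 beside 0% of all genes tested, with 13 at an unadjusted p under 0.05 (22.1% of all genes) and 6 called by DESeq2 (9.07% of all genes), and 0 of 39 on d17 beside 0.0491%, with 4 (7.55%) and 0 (0.236%). The median log2 difference of transport members was -0.42 in AKR/J on d17, and -0.34 and -0.25 in Cav1-null mice on d12 and d17. Calls on d17 depended on replicate 2 of C57BL/6J, without which 14 kinesins were called in AKR/J, beside 26.4% of all genes, and 8 in Cav1-null mice, beside 13.6%. Without replicate 3 of C57BL/6J on d12, 6 were called in Cav1-null mice, beside 7.37%.

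Whether the change between days itself differed between strains was tested by an interaction term over the 12 libraries concerned, and edgeR with TMM scaling called 0 kinesins in each of the 4 tests. The share of all genes called was 0.0711% and 0.00468% for AKR/J against C57BL/6J in the early and late phase, and 0.00472% and 0.252% for Cav1-null mice. At an unadjusted p under 0.05 there were 7, 5, 4 and 13 kinesins, beside 16.3%, 7.57%, 15% and 21.9% of all genes, and DESeq2 called 1, 0, 0 and 4, beside 4.6%, 0.211%, 1.49% and 6.7% of all genes. The wider early rise of transport members in AKR/J, with a median of 0.51 (log2) over the members' own differences in change, is thus not shown to differ from the one in C57BL/6J. Leaving out 1 library raised these counts: to 9 without AKR/J d12 replicate 2 and to 6 without C57BL/6J d17 replicate 1 for AKR/J early and late, beside 14.8% and 3.7% of all genes. For Cav1-null mice they rose to 6 without C57BL/6J d12 replicate 2 and to 21 without C57BL/6J d17 replicate 1, beside 7.3% and 26.1%.

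Splicing gave a second readout of the transport kinesins. The splice table lists reads that span exon junctions, and for each intron start or end with more than 1 junction the share of its reads that each junction took was compared between d12 and d17. The test was an exact permutation test within strains, two-sided, for which 0.00025 is the smallest p that it can give. Of 55670 junctions, 186 belonged to 35 kinesins; 19 shares in 3 members, Kif1a, Kif1b and Kif21a, had at least 10 reads and an alternative. The test called 10 of the 19, beside 18% of the 10073 shares tested over all genes. A share and its alternative at the same site are the same comparison, so that the 10 calls stand for fewer events.

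Kif21a, a kinesin-4 that restrains microtubule growth, increasingly included its exon of 21 bases, the sequence given above. Its share of the reads at the site was 66.2, 52.1 and 50% on d12, 73.2, 73.1 and 74.3% on d15 and 85.8, 89.6 and 87.1% on d17 in AKR/J. C57BL/6J libraries gave 63.3, 61.2 and 43.6%, 73.7, 77.1 and 77.9% and 91.7, 91.2 and 85.99%. Cav1-null libraries gave 58.3, 60.1 and 77.7%, 76.6, 74.6 and 80% and 91.4, 91.9 and 90.7%. In each strain the d17 libraries lay above all of d12. The mean over strains went up by 30.3 percentage points (exact p = 0.00025, adjusted p = 0.0045). Each library had at least 60 reads at this site.

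Kif1a used its exon of 24 bases more with age as well. Its share of the reads at the site was 21.9, 17.5 and 13.04% on d12, 29.4, 33.3 and 38.2% on d15 and 45.5, 47.8 and 46.5% on d17 in AKR/J. C57BL/6J libraries gave 22.1, 27.7 and 19.4%, 33.8, 31.8 and 32.9% and 48.8, 50.4 and 52.2%. Cav1-null libraries gave 18.03, 27.8 and 31.7%, 35.8, 48.3 and 31.2% and 47.4, 45.1 and 49.6%. Values of d12 and d17 did not overlap in any strain, and the difference was 26.0 percentage points (exact p = 0.00025, adjusted p = 0.0045). The AKR/J libraries of d12 had as few as 23 reads at this site, and each other group had at least 61.

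The extension of 78 bases in Kif1b moved furthest. Its share of the reads at the site was 21.7, 22.6 and 32.4% on d12, 46.3, 58.5 and 48.7% on d15 and 65.5, 65.2 and 80% on d17 in AKR/J. C57BL/6J libraries gave 50, 52.8 and 34.97%, 70.2, 63.9 and 67.8% and 78.1, 85.1 and 74.8%. Cav1-null libraries gave 46.7, 47.3 and 45.9%, 72.1, 67.9 and 64.8% and 76.04, 69.5 and 82%. Again no library of d17 reached down to d12, and the difference was 35.8 percentage points (exact p = 0.00025, adjusted p = 0.0045), on at least 37 reads a library. AKR/J was lowest among the strains on d12 and d15.

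**Figure D5:**
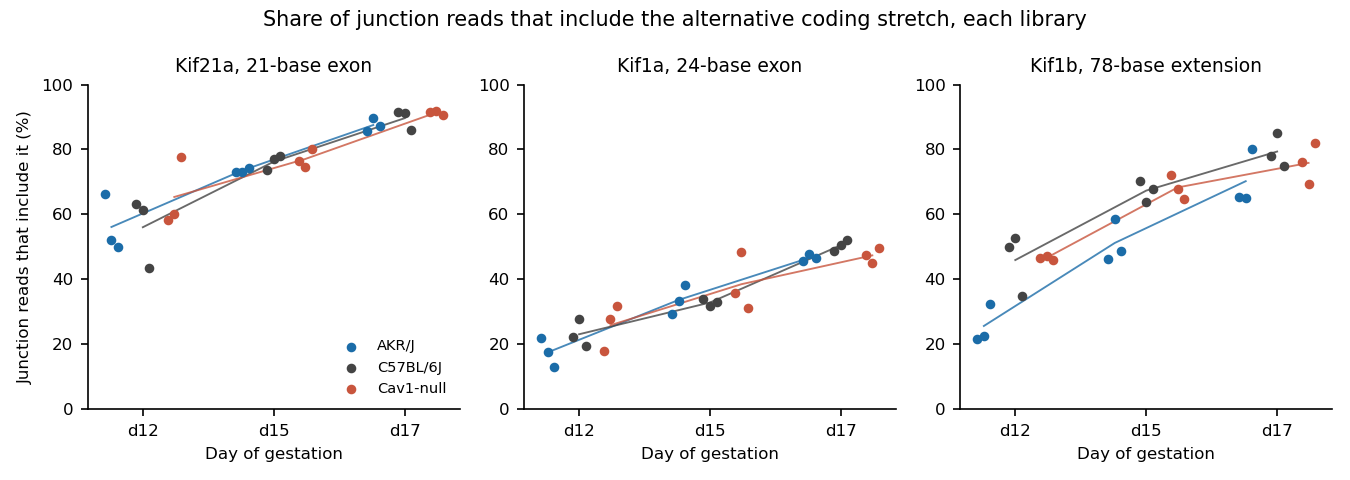
Percent of junction reads at a shared splice site that include the 21-base exon of Kif21a, the 24-base exon of Kif1a and the 78-base extension of Kif1b, against the day of gestation; each point is a library, colours are strains and lines join means of 3 libraries. In all 3 panels every strain goes up, by 30.3, 26.0 and 35.8 percentage points from d12 to d17 as the mean over strains.

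The levels of these 3 genes did not follow the same course: Kif1a rose in 4 of 6 comparisons, Kif1b in 2, and Kif21a was called in none, with log2 fold changes from -0.39 to 0.51. On d17 the shares by strain, which were not tested against each other, were 87.5 ± 1.95%, 89.6 ± 3.16% and 91.3 ± 0.570% for Kif21a in AKR/J, then C57BL/6J, then Cav1-null mice (SD, n = 3). The 4 further called shares all belong to Kif21a junctions next to 90828105 and 90840497 on chr15, of which the junction from 90833248 to 90840497 went up by 21.7 percentage points (exact p = 0.001, adjusted p = 0.0106). Its libraries of d12 and d17 overlapped in Cav1-null mice and not in the other two strains. The table holds 1 of the 2 junctions of the Kif21a and Kif1a exons, and the authors removed junctions with multi-mapped reads or short overhangs, so that a 0 can be a removed value. Shares are therefore compared between groups and not read as the absolute use of an exon.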

How the data were processed

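Per the labels and the study's methods, the authors aligned reads to GRCm39 by STAR after quality control (FastQC), adaptor removal (cutadapt) and quality trimming (fastp). They deposited unnormalized read counts, whole numbers for each Ensembl gene, and reads per splice junction, without junctions that had multi-mapped reads, overhangs under 20 bp, or fewer than 10 reads in every library. The counting tool and its treatment of strand and of multi-mapped reads are not given in the sources used here. Depth was 26363697 to 39759702 reads on genes, and the 27 pairs of libraries within a group differed by more than sampling noise (chi-square per gene at least 5.96).

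The counts were tested with edgeR 4.0.16 in R 4.3.3 (filterByExpr, TMM, quasi-likelihood test) on the 6 libraries of a comparison, and by an interaction term on 12. Standard errors were obtained by dividing the size of the log2 fold change by √F. Junction shares were compared by an exact permutation test within strains, at sites with at least 10 reads. Values per kilobase used the merged length of all exons of a gene in GENCODE vM39. The fits were tested on simulated data. Members and lists were chosen with earlier results of these data known. Values in every library are given for 14 preset kinesins, and in each comparison the largest called rise and fall and called members that went against their class median are named; others were named after their values were seen. Same-numbered libraries deviated together, with each correlation over 0.1, in 1 of 15 pairs of groups, AKR/J and C57BL/6J on d12 (0.114, 0.347 and 0.296). C57BL/6J and AKR/J on d17 gave 0.462, 0.304 and -0.015. The labels name no pairing, and these correlations can neither establish it nor exclude it. Alternatives were DESeq2 1.42.0, RLE factors, library sizes alone, no filter, all 27 libraries in 1 model, a replicate block, each library left out, and, chosen after seeing the data, removal of GC content and length trends and AKR/J d12 by replicate 2 alone.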

Additional observations from a re-analysis of the deposited data

How the results depend on the processing

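Counts of called kinesins changed with the fit, both small and large ones, and so did the share of all genes called, which is given in brackets. DESeq2 called 10 transport members higher in place of 4 in C57BL/6J early (25.2%), and 5 in place of 0 kinesins in AKR/J against C57BL/6J on d17 (6.58%), 6 in Cav1-null mice on d12 (9.07%), 1 in the early interaction of AKR/J (4.6%) and 4 in the late one of Cav1-null mice (6.7%). The model of all 27 libraries called 1 transport member higher in AKR/J late (10.2%), 7 in C57BL/6J early (16.3%), 1 in C57BL/6J late (19.6%), 1 in Cav1-null mice early (13.1%) and 0 in place of 8 in Cav1-null mice late (3.56%), and 23, 3 and 8 kinesins in AKR/J on d12, AKR/J on d17 and Cav1-null mice on d12 (47%, 3.6% and 7.44%), with 4 in the early interaction of AKR/J (7.12%). Library sizes alone left 1 mitotic member lower in AKR/J early (24.1%) and 5 transport members higher in Cav1-null mice early (23.4%); this scaling moved the median of all genes to 0.46 in the first, to 0.17 in C57BL/6J late, to -0.38 and 0.23 in AKR/J against C57BL/6J on d12 and d15 and to 0.21 in Cav1-null mice on d15. Without a filter on low counts, 1 transport member was higher in C57BL/6J late (8.33%), and 4, 2 and 2 kinesins were called in AKR/J on d17, Cav1-null mice on d12 and the late interaction of Cav1-null mice (2.51%, 2.16% and 2.61%). Removing the trends in GC content and length gave 4 transport members higher in Cav1-null mice late (31.6%), and 7, 12 and 1 kinesins in AKR/J on d12, d15 and d17 (17.8%, 25.8% and 1.32%); removing that in GC content alone gave 1 on d17 (1.07%). With replicate 2 alone for AKR/J on d12, 0 were called in place of 13 (0.0416%). Of the 10 junction shares, 4 were called with shared intron starts only, since the others are defined by shared intron ends. The causes of the other changes were not tested.

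The replicate block left 0 mitotic members lower in place of 13 and 0 transport members higher in place of 4 in C57BL/6J early, where it called 0% of all genes, 1 transport member higher in C57BL/6J late (11.9%), and called 3 kinesins in AKR/J on d17 (3.16%); where libraries share only a number, a call lost this way is not a weaker effect. On d12, where same-numbered libraries of AKR/J and C57BL/6J deviated together, it gave 2 mitotic members higher, 1 lower and 12 transport members lower.

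With each library left out in turn, mitotic members called lower ranged from 5 to 12, 0 to 13 and 9 to 13 early in AKR/J, then C57BL/6J, then Cav1-null mice and were 13 to 13, 2 to 13 and 13 to 13 in the late phase. Transport members called higher ranged from 8 to 12, 0 to 10 and 2 to 4, then from 1 to 4, 0 to 2 and 3 to 9. Kinesins called ranged from 0 to 18, 18 to 22 and 0 to 14 in AKR/J on d12, d15 and d17, from 0 to 6, 26 to 31 and 0 to 8 in Cav1-null mice, from 0 to 9, 0 to 6, 0 to 6 and 0 to 21 in the 4 interactions, and were 10 to 10 for junction shares. The share of all genes called in the same fits ranged from 12.4% to 43.5%, 0% to 29.8% and 11.2% to 35.9% early and from 7.58% to 23.3%, 0.767% to 33.2% and 18.9% to 25.5% late. It was 0.122% to 39.9%, 28.2% to 37.9% and 0.258% to 26.4% for AKR/J on the 3 days, 0% to 7.37%, 49.8% to 53.7% and 0.00946% to 13.6% for Cav1-null mice, and at most 14.8%, 3.7%, 7.3% and 26.1% in the interactions.

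Single members changed sign while called, as measured or under the alternative, almost only with the library trends removed. With both trends removed, AKR/J against C57BL/6J on d12 had Kif26a at 0.29, Kif13a at 0.02 and Kif7 at 0.86, and on d15 Kifc2 at 0.41, Kif1c at 0.22 and Kif13b at 0.19; Kif26a in AKR/J early was -0.71. With that in GC content removed, Kif2a was -0.75 on d12, and Kifc2 0.35 and Kif5b -0.12 on d15. In Cav1-null mice against C57BL/6J on d15, removing both gave Kif1c 0.07, Kif21a 0.06, Kifc5b 0.10, Kif3b 0.03, Kif17 0.81 and Kifc3 0.04, removing that in GC content gave Kif5b -0.22, Kifc5b 0.14, Kif20b -0.14 and Kif17 0.48, and library sizes alone gave Kif3a 0.14.

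Depth limits what was seen of Kif2b, Kif12, Kif19b and Kif28. The 3 libraries of a group, and the differences between libraries described above, limit the rest.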
